A study of Homo sapiens with 6 samples.

Results

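The 40 genes described here encode enzymes and regulators of cholesterol and fatty acid synthesis, with genes of sterol uptake, transport and export. They were chosen by name, and each was found in the deposited count table through the Ensembl gene identifier that the GENCODE release 29 annotation pairs with its symbol. Of the 40, 39 had a row among the 18798 genes of the table, and 37 passed the filter on low counts, among 14797 genes tested. HSD17B7 was not analysed here, and ABCA1 and ABCG1 were too low to test. The cells were U937, an established human monocytic leukaemia line. RNA was sequenced from 3 Control lines, which carried control plasmids, and from 3 ΔNSPs clones, described as independent. The ΔNSPs clones were depleted at the same time of CTSG (cathepsin G), ELANE (neutrophil elastase) and PRTN3 (proteinase 3), the serine proteases of neutrophil and monocyte granules. All 6 were grown in the same serum-containing medium and selected with geneticin at 500 ug/ml. The labels do not say whether each Control line grew from 1 cell, and each ΔNSPs clone is 1 library, so the spread within ΔNSPs is a spread between clones.

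Cholesterol and fatty acids are both built from acetyl-CoA. In the mevalonate pathway, acetyl-CoA is condensed and reduced to isoprenoid units, which are joined into farnesyl diphosphate and then squalene, and squalene is closed into a ring and trimmed to cholesterol. The transcription factors SREBP-1 and SREBP-2, encoded by SREBF1 and SREBF2, raise transcription of most of these enzymes when membrane sterol is low, while the INSIG proteins hold them, bound to SCAP, in the endoplasmic reticulum when sterol is high. Macrophages and monocytes also take up sterol in lipoproteins, store it as esters, and export it under control of the liver X receptors (LXR).

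The libraries held 11476619 to 13782854 counts assigned to genes. Levels are given as CPM, counts scaled to a common total by edgeR's trimmed mean method, and 3 counts, taken as the limit of detection, correspond to 0.214 to 0.260 CPM. The mean of the ΔNSPs clones was 4.09% of the Control mean for CTSG, 2.12% for ELANE and 12.8% for PRTN3. Of 12 monocytic and myeloid markers, 10 had a mean of at least 1 CPM, while CD14 and CD68 lay below it; their summed level was 1152 to 1324 CPM in the Control lines and 1133 to 1768 CPM in the clones. Of 12 markers of other cell types 6 were in the table, with a summed level of 127 to 194 CPM in Control and 156 to 179 CPM in ΔNSPs; HBB alone was at 73.9 to 133 and 84.6 to 114 CPM, and the other 6 were not analysed here. The part of these marker levels in the results below was not tested.

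The levels of many genes of the set followed the same order across the libraries, and the part of promoter sequence in this was not tested. The 250 bases in front of a gene's RefSeq start were searched for promoter sequence that the genes share. Those of SREBF2 (chr22:41832855-41833104, plus strand), INSIG1 (chr7:155297628-155297877, plus strand), HMGCS1 (chr5:43313413-43313662, minus strand), SCD (chr10:100346983-100347232, plus strand) and MSMO1 (chr4:165327419-165327668, plus strand) are printed 5′ to 3′ on the gene's strand, from the RefSeq table for GRCh38.p14. SREBF2 is shown for its match to the sterol regulatory element, and SCD because it had the highest level. INSIG1, HMGCS1 and MSMO1 are shown because they were among the most variable across the libraries. FADS1 and FADS2 varied more than MSMO1 between Control line 1 and the other Control lines but are not printed. Capitals mark matches to TCACNCCAC, a sterol regulatory element consensus, and to CCAAT, the core of the element bound by the factor NF-Y, each searched on both strands, so that a CCAAT on the other strand reads ATTGG.
SREBF2: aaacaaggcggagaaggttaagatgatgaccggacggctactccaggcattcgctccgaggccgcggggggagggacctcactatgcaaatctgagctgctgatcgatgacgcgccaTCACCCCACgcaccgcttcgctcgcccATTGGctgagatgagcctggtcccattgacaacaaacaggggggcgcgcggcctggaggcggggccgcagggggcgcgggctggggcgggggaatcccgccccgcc
INSIG1: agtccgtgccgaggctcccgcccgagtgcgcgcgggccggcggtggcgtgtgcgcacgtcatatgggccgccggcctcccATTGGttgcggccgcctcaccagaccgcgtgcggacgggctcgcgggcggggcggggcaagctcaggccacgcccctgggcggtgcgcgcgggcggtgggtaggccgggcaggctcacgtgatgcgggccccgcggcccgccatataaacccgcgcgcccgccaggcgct
HMGCS1: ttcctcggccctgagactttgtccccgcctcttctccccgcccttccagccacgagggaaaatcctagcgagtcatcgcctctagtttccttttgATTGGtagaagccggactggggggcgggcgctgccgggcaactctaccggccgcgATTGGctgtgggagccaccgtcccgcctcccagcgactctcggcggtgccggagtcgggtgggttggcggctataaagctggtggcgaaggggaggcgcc
SCD: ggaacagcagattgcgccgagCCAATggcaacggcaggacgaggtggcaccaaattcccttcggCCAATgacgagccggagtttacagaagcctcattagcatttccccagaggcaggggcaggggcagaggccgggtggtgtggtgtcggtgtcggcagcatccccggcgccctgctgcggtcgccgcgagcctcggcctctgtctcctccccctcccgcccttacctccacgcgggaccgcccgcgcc
MSMO1: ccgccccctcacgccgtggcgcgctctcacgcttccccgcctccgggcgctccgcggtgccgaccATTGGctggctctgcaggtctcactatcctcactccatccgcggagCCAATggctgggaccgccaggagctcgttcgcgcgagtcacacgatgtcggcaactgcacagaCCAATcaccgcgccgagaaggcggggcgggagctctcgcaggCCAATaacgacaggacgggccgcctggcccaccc

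The sterol regulatory element consensus was found in the promoters of 1.09% of the 27305 genes in the RefSeq table. Of the 33 tested genes of the set that had an entry, 1 held it, SREBF2. ACAT2, FASN, FDFT1 and SQLE had no entry and were not searched. A gene can have more than 1 entry (49 entries for 34 genes of the set), and these shares count a match in any of them. CCAAT was found for 37% of all genes and for 22 of the 33 (66.7%), and in every entry of a gene for 29.2% and 16 of the 33 (48.5%). The second entry of HMGCS1 (chr5:43313182-43313431) holds none. FADS1 and FADS2 hold none in any entry. Of these 33, 18 were at least 1.5-fold higher in Control line 1 than in both other Control lines. Among those 18, 14 held CCAAT (77.8%), against 8 of the other 15 (53.3%). A link between CCAAT and level was not tested. GGGCGG, the box bound by Sp1, was searched on both strands too and is not capitalised; it was found for 46.2% of all genes and 30 of the 33 (90.9%). The 27305 genes were not limited to those expressed here, while the 33 had passed the filter on low counts. A match is a run of letters in this window and not a measured binding site. A site that differs from the searched letters, or lies outside the window, would be missed.

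Per kilobase of exon, which allows genes to be compared, the tested genes spanned from SCD, the stearoyl-CoA desaturase that makes monounsaturated fatty acids, at a mean of 174 CPM per kb over the 6 libraries, to CYP51A1, a sterol demethylase, at 0.713. LBR, a nuclear envelope protein that is also a sterol reductase, followed SCD at 86.3 CPM per kb. FDFT1 (squalene synthase) stood at 76.2, FDPS (farnesyl diphosphate synthase) at 70.4, PMVK (phosphomevalonate kinase) at 62.3 and INSIG1 at 61.7 CPM per kb. These were the most abundant transcripts of the set. MVK (mevalonate kinase) at 4.25, SC5D (a sterol desaturase) at 3.41 and GGPS1 (geranylgeranyl diphosphate synthase) at 1.93 CPM per kb were among the lowest of the enzymes. In the annotation 41.0% of GGPS1's exon bases are shared with ARID4B and TBCE, so its level is uncertain. The level of CYP51A1 is uncertain too, as 83.2% of its exon bases are shared with other annotated genes. TM7SF2 at 1.47 CPM per kb carries the same sterol reductase activity as LBR. The sterol exporters ABCA1 and ABCG1 had 3, 3 and 1 counts and 1, 3 and 2 counts in the Control lines, and 3, 0 and 3 and 0, 2 and 2 counts in the clones, at or under 3 counts in every library. Their levels were not measurable at this depth, and no fold is given for them. This limit covers counting error only.

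**Figure D1:**
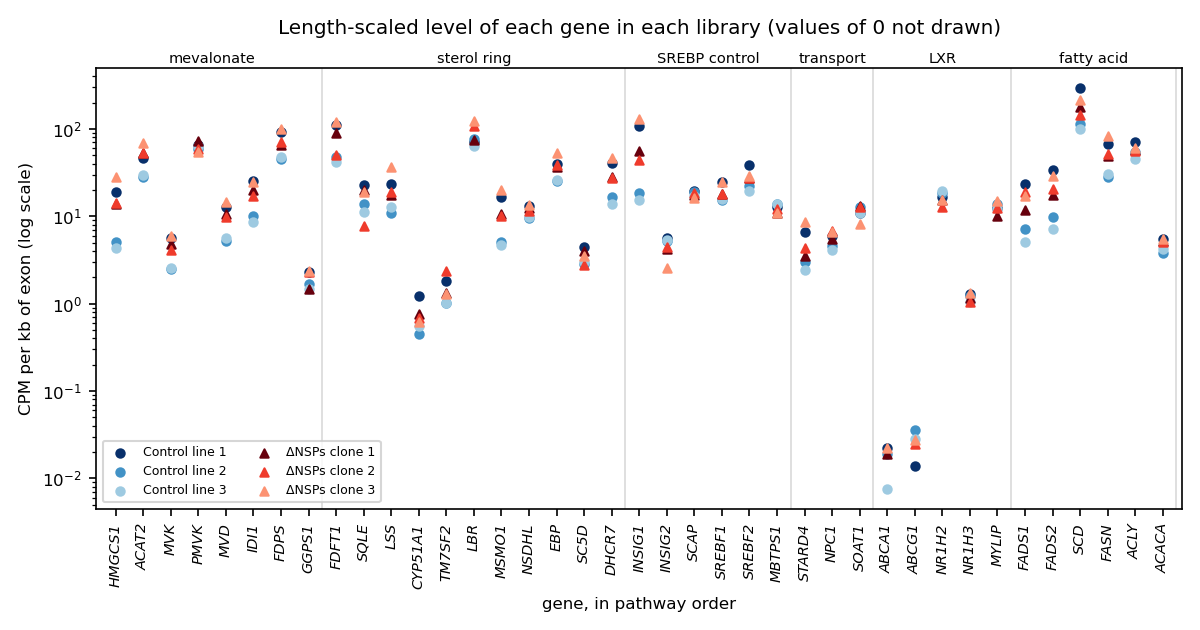
Level of the 39 genes in the table, in CPM per kilobase of exon on a log axis, with 1 point for each library (circles Control, triangles ΔNSPs); values of 0 are not drawn. SCD lies highest and the exporters ABCA1 and ABCG1 lie lowest.

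In the comparison of ΔNSPs with Control, no gene of the set passed an adjusted p of 0.05 in edgeR's quasi-likelihood test, with 0 of 37 higher and 0 lower. The lowest adjusted p was 0.178, for ACAT2, the cytosolic thiolase that condenses acetyl-CoA at the head of the mevalonate pathway. Across all genes the same test called 0.00676% higher and 0.0135% lower, 1 and 2 genes. At an unadjusted p under 0.05 edgeR gave 3 genes of the set higher (ACAT2, LBR and NPC1), where 9.23% of all genes were, and 3 lower (INSIG2, MBTPS1 and NR1H2), where 8.6% were. DESeq2 called ACAT2 higher and no gene of the set lower, against 1.91% and 2.07% of all genes. In these bulk libraries a change in how many cells express a gene and a change in its RNA per cell cannot be told apart. The p-values measure the spread between these lines and clones, which are called separate but not said to come from separate starting cultures.

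The direction of the estimates leaned upwards. The log2 fold change was above 0 for 27 of the 37 genes, against 50.3% of all genes, and its median was 0.35, against 0.0023 over all genes. Among the 19 tested genes that share no exon base with another annotated gene the lean was smaller. Of these 19, 11 were above 0, and their median was 0.07. Within the set the median was 0.49 for the 8 mevalonate pathway genes, 0.39 for the 11 genes from squalene to cholesterol, and 0.31 for the 6 fatty acid genes. It was -0.016 for the 6 genes that control the pathway, 0.37 for 3 genes of sterol transport and storage, and -0.04 for 3 LXR genes. The median over the set depended on single libraries: it was 0.54 without Control line 1, 0.13 without Control line 2, 0.12 without Control line 3 and 0.15 without clone 3. Only for ACAT2 did every clone lie above every Control line, where 12.2% of all genes showed this. For INSIG2, MBTPS1 and NR1H2 every clone lay below every Control line, as for 11.7% of all genes.

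The Control lines did not share 1 level of the pathway. Control line 1 was at least 1.5-fold above both other Control lines in 22 of the 37 genes, against 2.85% of all genes tested, and at least 1.5-fold below both in 0, against 4.72%. Control lines 2 and 3 were never 1.5-fold apart in the set, against 9.52% of all genes. INSIG1 was 6.47-fold higher in Control line 1 than in the mean of the other 2 Control lines, HMGCS1 3.95-fold, FADS2 3.95-fold, FADS1 3.88-fold and MSMO1 3.37-fold. By step, 6 of 8 mevalonate, 8 of 11 sterol, 4 of 6 fatty acid, 3 of 6 control, 1 of 3 transport and 0 of 3 LXR genes were at least 1.5-fold above both.

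For most genes the clones lay above the lower pair of Control lines. Every clone was above both Control lines 2 and 3 in 25 of 37 genes, against 19.7% of all genes, and below both in 3, against 19.8%. The lowest of the 6 libraries was Control line 2 or 3 in 28 of 37 genes, against 32.3% of all genes. The highest was ΔNSPs clone 3 in 19, against 19.7%, and Control line 1 in 12, against 10.4%. On the log2 scale (CPM + 0.5), the median deviation of the 37 genes from their mean over the 6 libraries was 0.39, -0.41 and -0.42 in Control lines 1 to 3 and 0.035, 0.038 and 0.37 in clones 1 to 3. The contrast thus set clones of intermediate to high level against Control lines of which 1 was high and 2 were low.

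**Figure D2:**
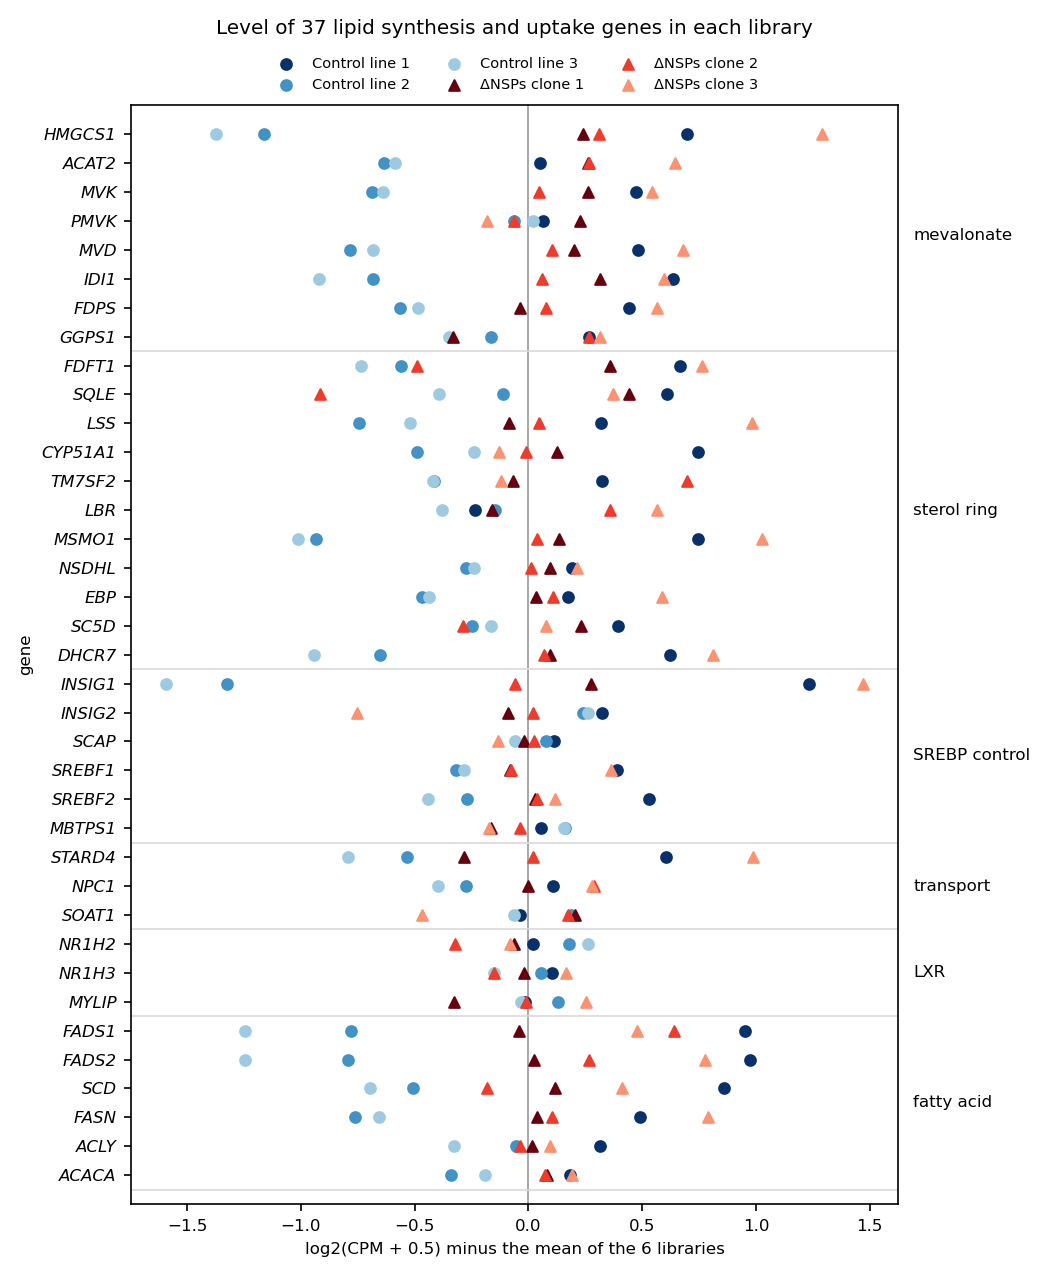
Each line is 1 of the 37 tested genes, by step of the pathway, and each point 1 library (circles Control, triangles ΔNSPs); the x axis is the log2 (CPM + 0.5) of the library minus the gene's mean over the 6 libraries. Most synthesis genes are above their mean in Control line 1 and ΔNSPs clone 3 and below it in Control lines 2 and 3.

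Of the mevalonate pathway genes, HMGCS1, the HMG-CoA synthase that joins acetoacetyl-CoA and acetyl-CoA (chr5:43289395-43313512), was at 88.1, 24.0 and 20.6 CPM in Control lines 1 to 3 and 64.2, 67.4 and 133 CPM in ΔNSPs clones 1 to 3. Clone 3 was highest and Control lines 2 and 3 were lowest, while Control line 1 lay above clones 1 and 2, so the groups overlapped. The means were 44.2 ± 38.0 and 88.3 ± 39.0 CPM (SD, n = 3 each), and the difference did not pass the test (log2 fold change 1.00, standard error 0.55, edgeR adjusted p = 0.375). ACAT2 (chr6:159760328-159779055) was at 198, 123 and 127 CPM in Control lines 1 to 3 and 228, 229 and 298 CPM in ΔNSPs clones 1 to 3. The lowest clone was above its highest Control line, and the means were 149 ± 42.2 and 252 ± 39.9 CPM (SD, n = 3 each). DESeq2 called ACAT2 at an adjusted p of 0.0166, while edgeR did not (log2 fold change 0.76, standard error 0.20, edgeR adjusted p = 0.178). It was also called without Control line 1 and without clone 1, but the DESeq2 adjusted p was 0.336 without Control line 2, 0.295 without Control line 3, 0.0502 without clone 2 and 0.163 without clone 3. In the annotation 52.3% of ACAT2's exon bases overlap the opposite-strand genes TCP1 and SOD2, and whether the counting used strand is not stated. TCP1, a chaperonin subunit, was at 643, 607 and 602 CPM in the Control lines and 745, 629 and 716 CPM in the clones, and the ratio of ACAT2 to TCP1 was 0.308, 0.202 and 0.211 in the Control lines and 0.306, 0.365 and 0.416 in the clones.

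Further along the same branch, MVK was at 36.3, 15.9 and 16.5 CPM in the Control lines and 31.3, 26.9 and 38.2 CPM in the clones. MVD, the decarboxylase that yields isopentenyl diphosphate, was at 60.1, 24.7 and 26.5 CPM in the Control lines and 49.4, 46.2 and 69.1 CPM in the clones. IDI1, which isomerises isopentenyl diphosphate, was at 109.9, 43.8 and 36.99 CPM in the Control lines and 87.8, 73.5 and 107 CPM in the clones. These 3 enzymes shared the order of HMGCS1 in that Control lines 2 and 3 were lowest, and Control line 1 was above both clones 1 and 2. FDPS was at 341, 169.6 and 179 CPM in the Control lines and 244, 265 and 371 CPM in the clones, with the same order. PMVK, the kinase between MVK and MVD, was level: its libraries ranged from 69.9 to 93.0 CPM, and its estimate was small (log2 fold change -0.0032, standard error 0.13, edgeR adjusted p = 0.991). GGPS1, which leads to the geranylgeranyl lipids rather than to sterol, was at 8.77, 6.38 and 5.54 CPM in the Control lines and 5.63, 8.78 and 9.10 CPM in the clones, and its groups overlapped.

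Among the genes from squalene to cholesterol, FDFT1 was at 575, 246 and 218 CPM in the Control lines and 465, 258 and 617 CPM in the clones. LSS, which closes the sterol ring, was at 168, 79.8 and 93.6 CPM in the Control lines and 126, 139 and 266 CPM in the clones. MSMO1, a sterol methyl oxidase, was at 47.5, 14.5 and 13.7 CPM in the Control lines and 30.9, 28.8 and 57.8 CPM in the clones. In all 3, Control lines 2 and 3 were the lowest libraries and clone 3 the highest. DHCR7, a late sterol reductase, was at 169, 69.5 and 56.9 CPM in the Control lines and 117, 115 and 193 CPM in the clones, and EBP, the sterol isomerase, at 96.0, 61.5 and 62.7 CPM in the Control lines and 87.3, 91.9 and 128 CPM in the clones. The edgeR estimates were 0.64 for LSS (standard error 0.35, adjusted p = 0.371) and 0.64 for MSMO1 (standard error 0.50, adjusted p = 0.524). Those of DHCR7 and EBP were 0.52 and 0.48, with edgeR adjusted p = 0.517 and 0.29. NSDHL, which takes part in removing the sterol methyl groups, was at 26.3, 18.9 and 19.4 CPM in the Control lines and 24.6, 23.2 and 26.7 CPM in the clones, a smaller span with the same 2 lowest libraries.

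SQLE, the squalene epoxidase and a rate-limiting enzyme of the branch, had another pattern, with 96.9, 58.7 and 48.1 CPM in the Control lines and 86.3, 33.4 and 82.0 CPM in the clones. Clone 2 was the lowest library, and the estimate was near 0 (log2 fold change -0.014, standard error 0.37, edgeR adjusted p = 0.988). SC5D was likewise lowest in clone 2, with 24.7, 15.6 and 16.6 CPM in the Control lines and 22.0, 15.2 and 19.7 CPM in the clones. LBR was at 375, 397 and 339 CPM in the Control lines and 395, 564 and 651 CPM in the clones, so that clones 2 and 3 stood above the other 4 libraries and Control line 1 did not stand out. Its edgeR estimate was 0.54 (standard error 0.18, adjusted p = 0.207). It was the only gene of the set that edgeR called without clone 1, with a log2 fold change of 0.71 and an adjusted p of 0.0247. In that fit 3.04% of all genes were called higher and 3.13% lower. The edgeR adjusted p of LBR was 0.34 without clone 2 and 0.261 without Control line 1. TM7SF2 was highest in clone 2, at 6.13, 3.48 and 3.47 CPM in the Control lines and 4.56, 8.10 and 4.38 CPM in the clones. CYP51A1, at 4.43, 1.59 and 1.99 CPM in the Control lines and 2.71, 2.42 and 2.19 CPM in the clones, was counted on few reads, and 83.2% of its exon bases are shared with other annotated genes, so its level is uncertain.

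Of the genes that control the pathway, INSIG1, the sterol-sensing anchor (chr7:155297776-155310235), had the widest spread of the set. It was at 396, 66.9 and 55.5 CPM in Control lines 1 to 3 and 204, 162 and 468 CPM in ΔNSPs clones 1 to 3. Control line 1 and clone 3 stood well above the rest, and Control lines 2 and 3 well below. The means were 173 ± 193 and 278 ± 166 CPM (SD, n = 3 each), and the SD of the Control lines exceeded their mean (log2 fold change 0.68, standard error 0.75, edgeR adjusted p = 0.655). INSIG2 (chr2:118088452-118110997), the paralog that also holds SCAP in the endoplasmic reticulum, was at 22.0, 20.8 and 21.1 CPM in the Control lines and 16.5, 17.8 and 10.2 CPM in the clones. The Control lines agreed closely, every clone was lower, and the estimate did not pass the test (log2 fold change -0.52, standard error 0.21, edgeR adjusted p = 0.258). The ratio of INSIG1 to INSIG2 CPM was 18.0, 3.22 and 2.63 in the Control lines and 12.4, 9.08 and 45.9 in the clones.

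SREBF2 (chr22:41833079-41907308) was at 290.5, 167 and 148 CPM in the Control lines and 205, 206 and 218 CPM in the clones. Control line 1 was highest, the clones lay close together and Control lines 2 and 3 were lowest, and the means were 202 ± 77.5 and 209.6 ± 7.02 CPM (SD, n = 3 each; log2 fold change 0.056, standard error 0.23, edgeR adjusted p = 0.921). SREBF1 was also highest in Control line 1 and lowest in Control lines 2 and 3, at 201, 123 and 126 CPM in the Control lines and 144, 145 and 197 CPM in the clones. SCAP, the escort of the SREBPs, was at 125, 122 and 111 CPM in the Control lines and 114, 117 and 105 CPM in the clones, within a narrow range. MBTPS1, the Golgi protease that makes the first cut in SREBP, was at 131, 141 and 140.2 CPM in the Control lines and 112, 123 and 112 CPM in the clones. Every clone lay below every Control line, by a small margin that did not pass the test (log2 fold change -0.25, standard error 0.095, edgeR adjusted p = 0.24).

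Among transport and storage genes, STARD4, a cytosolic sterol carrier, was at 37.6, 16.8 and 13.9 CPM in the Control lines and 20.1, 24.9 and 49.1 CPM in the clones, in the order seen for HMGCS1 except that clone 1 lay closer to the low Control lines. NPC1, which moves lipoprotein-derived cholesterol out of lysosomes, was at 59.7, 45.7 and 41.9 CPM in the Control lines and 55.3, 67.8 and 67.4 CPM in the clones. Its clones 2 and 3 were above all Control lines, while clone 1 was below Control line 1 (log2 fold change 0.37, standard error 0.16, edgeR adjusted p = 0.274). SOAT1, which esterifies cholesterol for storage, was at 77.0, 90.1 and 75.7 CPM in the Control lines and 91.2, 89.1 and 57.1 CPM in the clones and was lowest in clone 3. Of the LXR genes, NR1H2 (LXR beta) was at 61.5, 68.7 and 72.9 CPM in the Control lines and 58.0, 48.4 and 57.4 CPM in the clones, with every clone below every Control line (log2 fold change -0.31, standard error 0.12, edgeR adjusted p = 0.238). NR1H3 (LXR alpha) was at 5.79, 5.58 and 4.76 CPM in the Control lines and 5.28, 4.77 and 6.06 CPM in the clones, and MYLIP, an LXR target that marks lipoprotein receptors for breakdown, at 37.6, 41.7 and 37.2 CPM in the Control lines and 30.2, 37.8 and 45.5 CPM in the clones. Neither of these separated the groups, and neither stood apart in Control line 1.

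In all 6 fatty acid genes every clone was above Control lines 2 and 3. SCD (chr10:100347124-100364834) was at 1580.1, 612 and 537 CPM in Control lines 1 to 3 and 943, 766 and 1156 CPM in ΔNSPs clones 1 to 3. Control line 1 exceeded all clones, and the means were 909.8 ± 582 and 955 ± 195 CPM (SD, n = 3 each; log2 fold change 0.07, standard error 0.39, edgeR adjusted p = 0.941). FASN, the fatty acid synthase, was at 629, 264 and 284 CPM in the Control lines and 459.9, 481 and 774 CPM in the clones, with clone 3 highest (log2 fold change 0.54, standard error 0.35, edgeR adjusted p = 0.443). The desaturases of polyunsaturated fatty acids have overlapping loci on chromosome 11: FADS1 (chr11:61799625-61829318) was at 242, 72.3 and 52.3 CPM in the Control lines and 121, 194 and 174 CPM in the clones, and FADS2 (chr11:61792980-61867354) at 369.7, 108 and 79.0 CPM in the Control lines and 191, 226 and 323 CPM in the clones. Their CPM ratio, FADS2 to FADS1, was 1.53, 1.498 and 1.51 in the Control lines and 1.58, 1.16 and 1.86 in the clones, so the Control lines had nearly 1 ratio at very different levels, while clones 2 and 3 lay further apart. ACLY, which makes cytosolic acetyl-CoA from citrate, was at 368, 286 and 236 CPM in the Control lines and 299, 289 and 316 CPM in the clones, and ACACA, the acetyl-CoA carboxylase, at 71.8, 49.8 and 55.2 CPM in the Control lines and 66.9, 66.4 and 72.3 CPM in the clones. Both spanned less than 1.6-fold. FDPS, SCD and FADS2 have 8, 1 and 1 annotated pseudogenes, and CYP51A1 has 3, among which reads could have been split. Of these pseudogenes only CYP51A1P1 and CYP51A1P2 had a row among the deposited counts, with 14 and 52 counts over the 6 libraries.

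**Figure D3:**
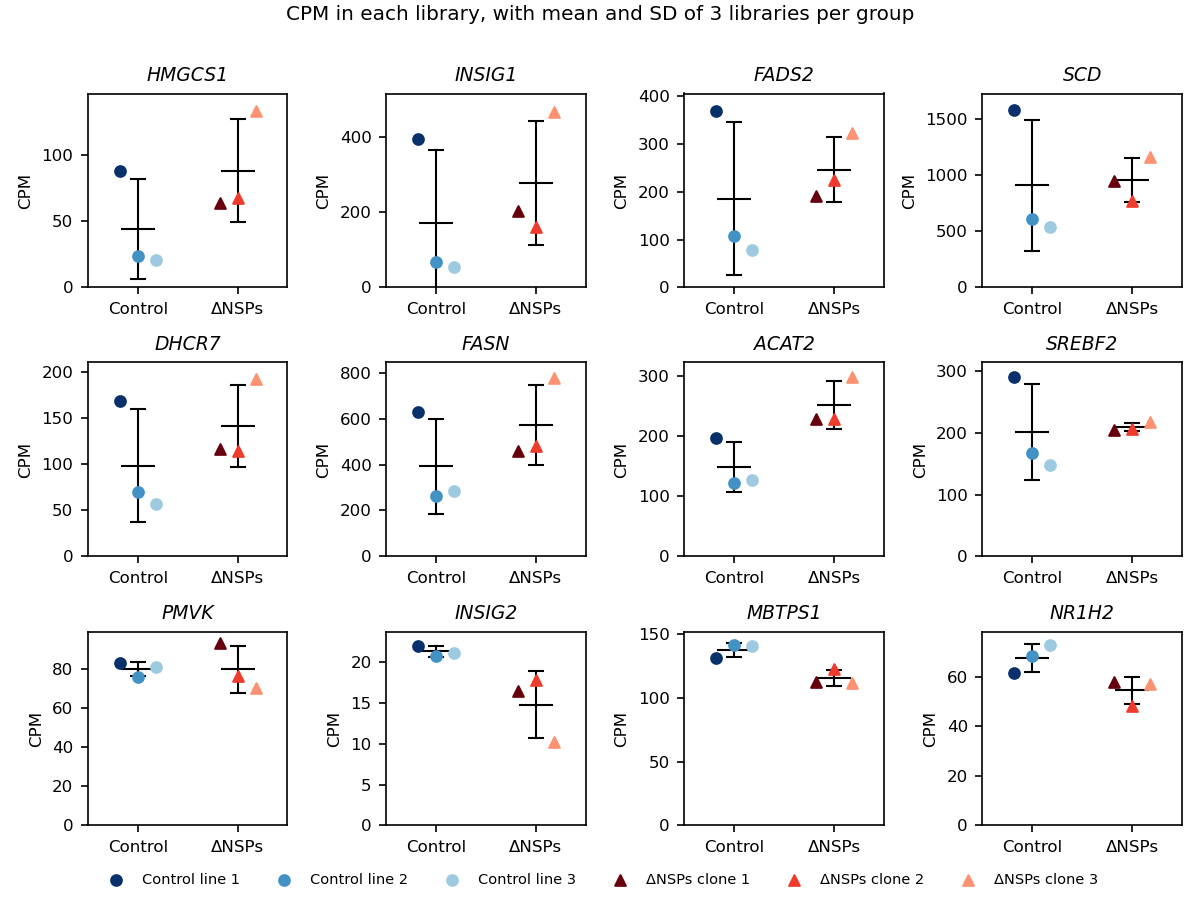
CPM of 12 genes of the set in each library, with the mean and SD of each group (n = 3); an SD bar that would pass below 0 ends at 0, as for INSIG1 in Control. In HMGCS1, INSIG1, FADS2, SCD, DHCR7 and FASN Control line 1 lies apart from the other Control lines, while PMVK, INSIG2, MBTPS1 and NR1H2 show no such gap.

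Control line 1 is singled out for its levels, and the DESeq2 fit without it was added after they were seen, so the values that follow describe the contrast with the other Control lines and are not independent of the pattern. The edgeR estimate for INSIG1 became 2.18 (standard error 0.46), that for HMGCS1 1.98 (0.35) and that for MSMO1 1.47 (0.33). FADS2 and FADS1 stood at 1.39 and 1.39, DHCR7 at 1.16, FASN at 1.06 and ACAT2 at 1.013. Even so edgeR called 0 of 37 in either direction after adjustment, with a lowest adjusted p of 0.115, for ACAT2; over all genes it called 0.00657% higher and 0.125% lower. Before adjustment, at p under 0.05, it gave 22 higher and 2 lower, against 9.2% and 8.37% of all genes. DESeq2 called 16 of 37 higher and 0 lower without Control line 1, against 2.33% and 2.4% of all genes.

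Of those 16, 6 act in the mevalonate pathway (HMGCS1, ACAT2, MVK, MVD, IDI1 and FDPS), 4 between squalene and cholesterol (LSS, MSMO1, EBP and DHCR7), 4 in fatty acid synthesis (FADS1, FADS2, SCD and FASN) and 2 in control (INSIG1 and SREBF2). Their DESeq2 adjusted p ranged from 1.53e-06 for HMGCS1 to 0.0452 for SREBF2. The median log2 fold change by step without Control line 1 was 1.00 for the mevalonate genes, 0.71 for the sterol genes and 0.90 for the fatty acid genes, and 0.17, 0.53 and -0.063 for control, transport and LXR genes. No LXR gene and no transport gene was called. The 25 synthesis genes had a median of 0.41 with all libraries and 0.75 without Control line 1, while the other 12 stood at -0.018 and -0.0013.

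**Figure D4:**
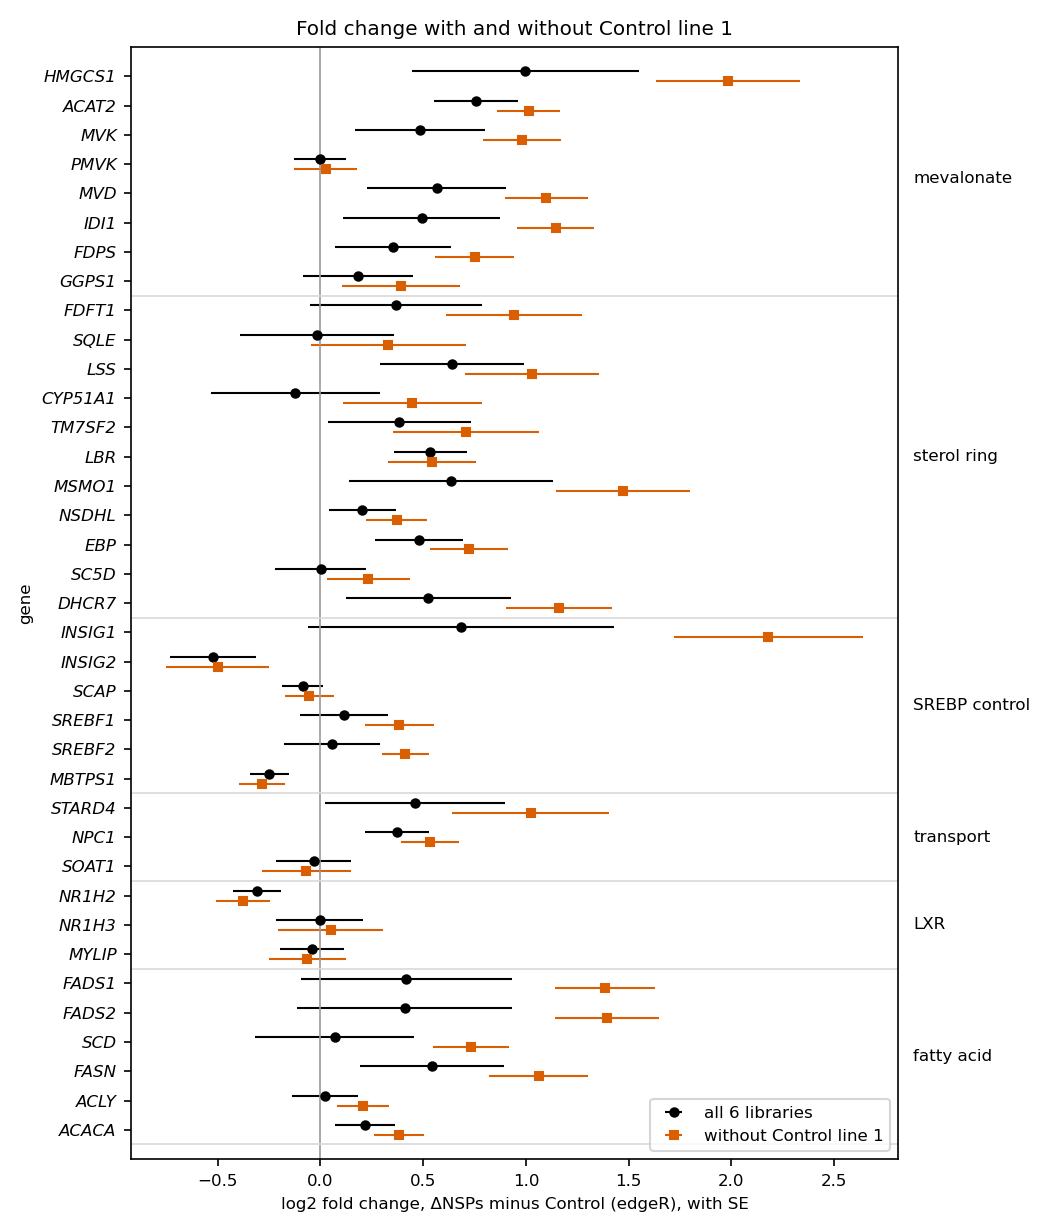
The edgeR log2 fold change of ΔNSPs against Control with its standard error for the 37 tested genes, with all 6 libraries and without Control line 1. Without Control line 1 the synthesis genes lie further above 0, up to 1.98 for HMGCS1, and their standard errors are mostly smaller.

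The clones also differed among themselves. Clone 3 was at least 1.5-fold above both other clones for 7 genes, HMGCS1, LSS, MSMO1, DHCR7, INSIG1, STARD4 and FASN, against 2.82% of all genes. INSIG1 was widest, at 204, 162 and 468 CPM in clones 1 to 3. Each gene was also set beside the expressed genes (mean of at least 8 CPM) within 10 Mb of it, and for 8 genes of the table, 7 of them tested, the median of these neighbours was shifted from the Control mean by at least 0.3 (log2) in at least 1 library. On chromosome 8, which carries FDFT1 and SQLE, 344 genes had a median of 0.662 of the Control mean in clone 2. For SQLE the log2 ratios to the Control mean were 0.41, -0.95 and 0.34 in clones 1 to 3, beside -0.065, -0.88 and 0.067 for its 34 neighbours, and for FDFT1 0.57, -0.28 and 0.97 beside -0.052, -0.62 and -0.0036 for 22. Of the clones, clone 2 was thus the lowest for both genes and for their neighbours.

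Around LBR, GGPS1, LSS and ABCG1 the neighbours were higher in clones 2 and 3, and around HMGCS1 in clone 3. The log2 ratios of HMGCS1 were 0.85, 0.92 and 1.90 in clones 1 to 3 and those of its 34 neighbours -0.11, 0.089 and 0.33, so the gene lay well above them in each clone. For LBR (chr1:225401502-225428925) the log2 ratios were 0.10, 0.61 and 0.82 in clones 1 to 3 and those of its 80 neighbours -0.13, 0.40 and 0.39. GGPS1 (chr1:235327350-235344532), further along chromosome 1, had -0.25, 0.35 and 0.40 beside -0.14, 0.41 and 0.43, close to its neighbourhood in each clone. LSS (chr21:46188141-46228824) had 0.23, 0.36 and 1.30 beside -0.069, 0.32 and 0.42, well above its neighbours in clone 3. INSIG2 had -0.36, -0.25 and -1.03 beside 0.021, 0.08 and -0.51 for 51 neighbours, so that its lowest library, clone 3, was also that of its neighbourhood. The part of these neighbourhood shifts in the genes' own levels was not tested. Among the 30 tested genes whose neighbourhood was not shifted, the median log2 fold change was 0.28. Of these 30, 18 were at least 1.5-fold above both others in Control line 1, against 2.85% of all genes. In 22 every clone was above Control lines 2 and 3, against 19.7% of all genes.

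**Figure D5:**
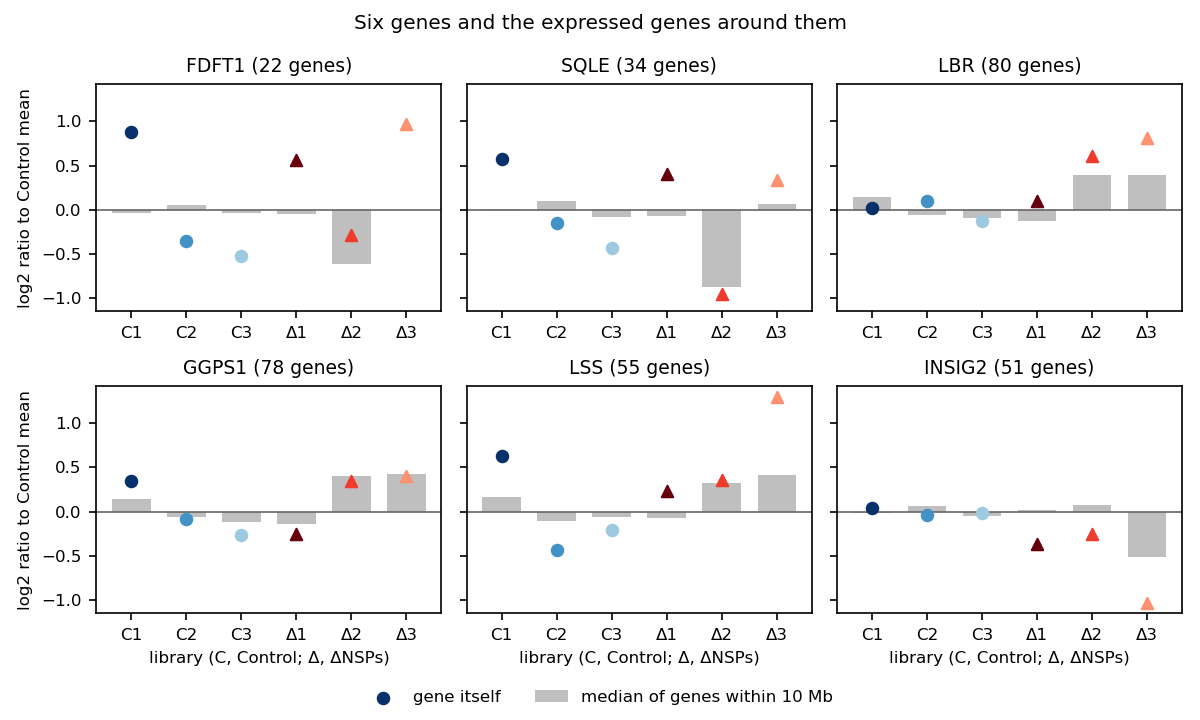
Points show the log2 ratio of 6 genes to their Control mean in each library (C, Control lines; Δ, ΔNSPs clones), and grey bars the median ratio of expressed genes within 10 Mb. FDFT1 and SQLE have their lowest clone value in clone 2, as have their neighbours, and LBR and GGPS1 are high in clones 2 and 3 with theirs.

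The wider pathway was read from 78 further genes in 4 lists, 68 of them tested, and edgeR called none of them with all libraries. For 16 other genes of isoprenoid and sterol synthesis the median log2 fold change was 0.09, and 4 were higher and 1 lower at p under 0.05 before adjustment, where 9.23% and 8.6% of all genes were; these shares stand behind the counts of the other lists too.

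For 9 other genes of SREBP control the median was -0.36, with 4 lower at an unadjusted edgeR p under 0.05. ERLIN1, which had the highest CPM (not scaled by length) of this list, a membrane protein that binds SREBP and INSIG complexes, was at 435, 469.7 and 410.0 CPM in the Control lines and 360.2, 356 and 309.7 CPM in the clones (log2 fold change -0.36, standard error 0.11, edgeR adjusted p = 0.184). For 17 tested genes of sterol uptake, transport and LXR the median was -0.0091, with 1 higher and 3 lower. LRPAP1, highest in CPM there and a chaperone of lipoprotein receptors, had an estimate of -0.16. RXRA, the partner receptor of the LXRs, rose in DESeq2 from 113 ± 8.81 to 153 ± 12.3 CPM (log2 fold change 0.43, adjusted p = 0.0361). For 26 tested genes of fatty acid synthesis, elongation and activation it was -0.11, with 0 higher and 2 lower. HACD3, an elongation dehydratase and highest in CPM there, had an estimate of 0.049. HACD1, a dehydratase of fatty acid elongation, fell in DESeq2 from 15.1 ± 2.58 to 7.31 ± 3.55 CPM (log2 fold change -1.05, adjusted p = 0.0387). The DESeq2 calls of RXRA and HACD1 held without clone 1 but not without any other library, with adjusted p of 0.0608 to 0.22 and 0.0927 to 0.503 there. In the last 3 of these lists, in the order given, 1 of 9, 0 of 17 and 1 of 26 genes were at least 1.5-fold above both other Control lines in Control line 1, against 2.85% of all genes.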

How the data were processed

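RNA-seq of total RNA from 3 Control lines and 3 ΔNSPs clones of U937 was analysed. The deposited file holds whole-number counts of reads for each gene, unnormalized; the submitters' processing notes name HISAT2 2.0.0 (an aligner), HTSeq 0.11.1 (a read counter), SAMtools 1.5.9, FastQC and the build GRCh38.p12. Which gene annotation and strand setting were used is not given in the sources used here; the lowest total of a gene over the 6 libraries was 10 counts. Columns carry the samples' names. Of 18798 identifiers, 18771 matched GENCODE 29, the source of symbols, exon lengths and coordinates.

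Counts were fitted over the whole table with edgeR 4.0.16 in R 4.3.3 (filterByExpr, trimmed mean scaling, quasi-likelihood test, 2 groups, two-sided, Benjamini-Hochberg adjustment over all tested genes, threshold 0.05). Alternatives were DESeq2 1.42.0, its size factors, no filter, limma 3.58.1 voom, a replicate block and each library left out; DESeq2 without each library, a 2-fold threshold and CPM from raw totals were added after the data were seen. No 2 libraries of a group agreed within sampling noise (lowest chi-square per degree of freedom 7.62). Scripts were tested on simulated data. Members and lists were chosen with earlier results of these data known. All 40 members are named; of 4 lists of further pathway genes, those past 0.05 in edgeR or DESeq2, or otherwise the highest in mean CPM; and the targets CTSG, ELANE and PRTN3. Single genes of the isoprenoid and sterol list are not reported here. The lists of neighbourhoods, ratios and overlaps were chosen after values were seen.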

Additional observations from a re-analysis of the deposited data

How the results depend on the processing

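With all 6 libraries edgeR called 3 genes; DESeq2 called 515, limma voom 1 and no filter 4, and leaving out each library in turn gave 0 to 1891 over edgeR and DESeq2. Of the 37 members, edgeR called 0, DESeq2 1, and the fits without 1 library 0 to 16. The members' median log2 fold change ranged from 0.11 to 0.54 in those fits and stayed positive in all alternatives run. The count of 22 members at least 1.5-fold above both other Control lines in Control line 1 stayed 22 with raw totals. It became 14 at 2-fold. The count of 25 with every clone above Control lines 2 and 3 became 24 with raw totals. Shares over all genes with raw totals and at 2-fold are not given here. The estimate of SC5D turned to -0.0015 with DESeq2 size factors, -0.0016 with no filter and -0.0021 with DESeq2, and that of CYP51A1 to 0.038 with voom. Leaving out 1 library turned these estimates within the ranges given: ACLY -0.12 to 0.21, CYP51A1 -0.40 to 0.45, HACD3 -0.077 to 0.15, LRPAP1 -0.31 to 0.022, MYLIP -0.19 to 0.092, NR1H3 -0.10 to 0.076, PMVK -0.14 to 0.083, SC5D -0.13 to 0.23, SCD -0.21 to 0.73, SOAT1 -0.15 to 0.16, SQLE -0.24 to 0.33, SREBF1 -0.048 to 0.38, SREBF2 -0.13 to 0.41 and STARD4 -0.021 to 1.023. The cause was not tested. Same-numbered samples did not deviate together (correlations -0.44, -0.16, -0.15), and no library correlated best with its own number. These values show no pairing by number, but differences between lines and clones could hide one. With the number as a replicate block edgeR called 0 genes and 0 members, and the members' median was 0.38. Among named genes and settings 678 values kept their direction and side of the threshold, 47 passed it, 4 lost it and 70 turned sign. Depth limits ABCA1 and ABCG1 most, and 3 samples a group limit every test. CYP51A1 is limited by few reads and by the 83.2% of its exon bases shared with other annotated genes.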

Other observations

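Of 23 gene identifiers with the symbol of a gene that overlaps a member's exons, 11 had their 2 lowest libraries in Control lines 2 and 3. Of the 23, 12 were higher in Control line 1 than in both other Control lines, and 5 were lowest in Control line 1. Over all 14797 genes tested, 5364 were higher in Control line 1 than in both other Control lines. AC069185.1, which is among the 5, and SOD2-OT1 did not pass the filter on low counts, so they are not among the 14797. For the counts of 11 and 5 the shares over all genes are not given here. The 5 given next are among the 11 and were chosen after their values were seen. RUSC1-AS1, antisense beside FDPS, was at 271, 149 and 155 CPM in Control lines 1 to 3 and 206, 226 and 311 in clones 1 to 3. IDI2-AS1, which overlaps IDI1, was at 17.7, 5.29 and 4.76 CPM in Control lines 1 to 3 and 12.1, 12.03 and 16.1 in clones 1 to 3. The transcripts AC114947.2 beside HMGCS1 and AP001469.1 beside LSS were at 29.8, 8.04 and 8.23 CPM in Control lines 1 to 3 and 21.9, 19.8 and 45.1 in clones 1 to 3, and at 11.1, 4.85 and 5.02 CPM in Control lines 1 to 3 and 6.42, 10.1 and 15.4 in clones 1 to 3. MMAB, a cobalamin enzyme gene that overlaps MVK, was at 43.8, 16.8 and 21.7 CPM in Control lines 1 to 3 and 37.2, 28.6 and 38.9 in clones 1 to 3. In each of these, Control line 1 exceeded both other Control lines. RAI1, beside SREBF1, was lowest in Control line 1, at 29.4, 34.8 and 34.1 CPM in the Control lines. STARD4-AS1 did not follow STARD4, at 68.3, 67.5 and 75.3 CPM in Control lines 1 to 3 and 56.5, 53.1 and 49.8 in clones 1 to 3. Because the strand setting is not given, reads of these genes and of the members they overlap cannot be told apart where exons are shared: 18.6% of exon bases in FDPS, 14.9% in HMGCS1, 14.8% in IDI1, 7.88% in LSS and 4.72% in MVK. Among the 19 tested members that share no exon base with another gene, the median log2 fold change was 0.07, or 0.37 without Control line 1. Of these 19, 8 were at least 1.5-fold above both others in Control line 1, against 2.85% of all genes. In 9 every clone was above Control lines 2 and 3, against 19.7% of all genes. INSIG1, SCD, FASN, DHCR7 and MSMO1 are among these 19.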
